A study of Mus musculus with 6 samples.

Results

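The genes described here were the Toll-like receptor genes Tlr1, Tlr2, Tlr4, Tlr6, Tlr8 and Tlr13 and the co-receptor genes Cd14, Ly96, Cd180 and Ly86. They were taken by gene name from the table of counts, and all 10 were found among its 55493 genes. The other nucleic acid receptors Tlr3, Tlr7 and Tlr9 were not part of the set, nor were Tlr5, Tlr11 and Tlr12. Sequencing covered microglia, macrophages that reside in the brain, which were sorted by low CD45 and by CD11b from a brain hemisphere of male ILT Telo Tg x 5XFAD mice. These mice carry human LILR-region genes and develop amyloid deposits. In both groups treatment began at 4 months of age and ran for 8 injections into the peritoneum, 1 a week, of 60 mg/kg each. The anti-LILRB4 group (3 libraries) received an Fc-mutant antibody against the human inhibitory receptor LILRB4, also called ILT3. The control group (3 libraries) received an Fc-mutant control antibody named Ctrl IgG2a in the labels. The comparison asks how the antibody changed the transcriptome of microglia in this amyloid model. Separate animals per library are not stated in the labels. The p-values below therefore rest on how far libraries of 1 group lie apart, which may be technical.

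Toll-like receptors are membrane proteins that bind microbial products, and also products of damaged tissue, and signal through adaptors such as MyD88 to induce inflammatory genes. TLR2 pairs with TLR1 or with TLR6 at the cell surface to bind bacterial lipoproteins. TLR4 needs the secreted protein MD-2, encoded by Ly96, to bind lipopolysaccharide, and CD14 hands ligands to it. TLR8, as known from human cells, and TLR13, a mouse receptor for bacterial ribosomal RNA, sense RNA in endosomes. CD180, also called RP105, resembles TLR4 outside the cell but lacks the TIR domain that carries the signal inside. It is held at the surface by MD-1, encoded by Ly86. In microglia, TLR2, TLR4, TLR6 and CD14 are known to take part in the response to fibrillar amyloid.

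Total counts were between 39805118 and 56345514 per library. The sorted cells carried microglia transcripts, with the summed level of 9 homeostatic markers, P2ry12 and Cx3cr1 the most abundant, between 36458 and 38339 CPM (read counts scaled to library size with TMM) in anti-LILRB4 libraries and between 34648 and 37208 CPM in control libraries. Of these 9, Csf1r, Fcrls and Siglech, named after their values were seen, lay above all controls, against 6.94% of all genes. None lay below, against 7.79% of all genes. The exons of P2ry12, Cx3cr1 and Csf1r overlap those of Med12l, Gm33858 and Hmgxb3 on the opposite strand. Markers of other cells were far lower. The 8 markers of monocytes summed to between 27.6 and 69.9 CPM in anti-LILRB4 libraries and between 43.7 and 91.6 CPM in controls. Markers of border-associated macrophages, lymphocytes and the other brain cells each summed to at most 154.1 CPM in any library. The 12 neutrophil markers summed to 335.5, 1433.5 and 417.4 CPM in anti-LILRB4 libraries 1, 2 and 3, against 1490.9, 747 and 801.9 CPM in control libraries 1, 2 and 3. Of these markers, S100a8 was the most abundant, followed by Csf3r, which microglia also express. The groups did not overlap in 4 of the 12, against 14.7% of all genes (7.79% lower and 6.94% higher). Retnlg, Mmp8 and Ly6g, named after their values were seen, lay below all controls, and Csf3r lay above all controls.

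Some stretches of sequence bear on these measurements. Tlr1 and Tlr6 are neighbours on mouse chromosome 5, both on the minus strand with 18467 bases between them, and their transcripts are alike enough that some reads cannot be assigned to one of them. The longest stretch they share without a difference was 229 bases, 9.60% of the Tlr1 coding sequence and 9.47% of the Tlr6 coding sequence. It lies in coding exons at chr5:64925537-64925765 (Tlr1) and chr5:64953828-64954056 (Tlr6) in GRCm38. It is shown, from GENCODE M21 transcripts, with the shared bases in capitals and 6 bases on either side in lower case.
Tlr1: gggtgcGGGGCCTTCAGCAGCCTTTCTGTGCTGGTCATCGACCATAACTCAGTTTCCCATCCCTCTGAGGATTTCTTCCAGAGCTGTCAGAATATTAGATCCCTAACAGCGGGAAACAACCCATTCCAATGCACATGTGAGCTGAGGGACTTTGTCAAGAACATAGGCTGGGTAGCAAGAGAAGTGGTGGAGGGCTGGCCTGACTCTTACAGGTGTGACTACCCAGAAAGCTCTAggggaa
Tlr6: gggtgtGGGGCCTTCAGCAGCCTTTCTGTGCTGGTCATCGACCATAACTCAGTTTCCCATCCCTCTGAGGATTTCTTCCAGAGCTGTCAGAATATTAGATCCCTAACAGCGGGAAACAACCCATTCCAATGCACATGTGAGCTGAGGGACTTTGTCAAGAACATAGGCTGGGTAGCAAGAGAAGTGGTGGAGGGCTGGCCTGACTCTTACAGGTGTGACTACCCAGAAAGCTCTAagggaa
Of all windows of 150 bases in Tlr1 transcripts, 4.30% were also present in Tlr6, and of those in Tlr6 transcripts 3.86% were present in Tlr1. With windows of 50 bases the shares were 13.6% and 12.3%. How the authors' counting treated such reads is not given in the sources used here, so the split between Tlr1 and Tlr6 is uncertain to that extent. Tlr2, Ly96, Cd14, Tlr8, Tlr13 and Ly86 shared no window of 50 bases with another gene, and Tlr4 shared 0.216% of them. Against all other genes together, each other included, Tlr1 shared 15.4% of them and Tlr6 12.3%. Cd180 shared 3.03% of them with Mast4, a kinase gene on the opposite strand whose exons overlap its own. The library kit does not mark strand, so reads there cannot be told apart. Mast4 was at 38.8 ± 10.7 CPM in anti-LILRB4 libraries and 37.4 ± 5.66 CPM in controls (SD, n = 3 each).

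The start-site regions of Tlr2, Tlr1 and Tlr6 are shown because these 3 receptors form the TLR2 pairs, with which the results begin. Each sequence, from RefSeq on GRCm38.p6, holds 250 bases before and 50 after the start site and is written in the direction of the gene. Capitals mark every match to 5 motifs, on either strand. The motif searched for PU.1, a factor that controls genes of macrophages, was its core GAGGAA. For AP-1 it was TGANTCA, with N any base. The motif of the TATA box was TATAAA. NF-kB sites were searched as GGG followed, after any 5 bases, by CC. The interferon-stimulated response element was searched as GAAA repeated after any 2 bases.
Tlr2: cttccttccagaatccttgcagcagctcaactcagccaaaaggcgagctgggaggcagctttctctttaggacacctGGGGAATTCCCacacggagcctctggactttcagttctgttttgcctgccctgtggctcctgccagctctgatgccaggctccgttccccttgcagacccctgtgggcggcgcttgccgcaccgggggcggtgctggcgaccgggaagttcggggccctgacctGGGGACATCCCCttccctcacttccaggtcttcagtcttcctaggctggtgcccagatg
Tlr1: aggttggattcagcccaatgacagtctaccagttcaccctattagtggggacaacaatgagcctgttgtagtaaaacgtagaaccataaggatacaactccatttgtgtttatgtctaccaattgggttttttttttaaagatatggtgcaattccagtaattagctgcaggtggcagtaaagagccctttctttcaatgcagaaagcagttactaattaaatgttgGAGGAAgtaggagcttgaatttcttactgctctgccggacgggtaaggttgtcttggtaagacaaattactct
Tlr6: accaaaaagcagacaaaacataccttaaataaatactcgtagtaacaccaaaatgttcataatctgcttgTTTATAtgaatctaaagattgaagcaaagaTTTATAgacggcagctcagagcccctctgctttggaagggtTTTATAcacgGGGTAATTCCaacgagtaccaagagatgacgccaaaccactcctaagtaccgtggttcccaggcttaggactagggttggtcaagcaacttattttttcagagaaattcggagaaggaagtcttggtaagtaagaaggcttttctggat
They lie at chr3:83841559-83841858 (Tlr2), chr5:64933509-64933808 (Tlr1) and chr5:64959999-64960298 (Tlr6), all on the minus strand. The Tlr2 region held 5 matches to the NF-kB motif, which overlap each other in 2 places, at 173 and 9 bases before the start site. The Tlr1 region held 1 PU.1 core. The Tlr6 region held 1 match to the NF-kB motif and 3 to the TATA box, all on the reverse strand (printed as TTTATA). No match of one motif overlapped a match of another. The NF-kB motif as spelled here was present in 50.8% of all 32851 start-site regions of this length, the PU.1 core in 28.3%, the TATA box in 13.6%, the AP-1 motif in 7.81% and the interferon motif in 3.44%. Of the 10 genes, 7 had such a region in the table. For Tlr1, Tlr6 and Cd180, which have 2 listed regions each, only the one nearest to the gene's start in GENCODE M21 was searched. The AP-1 and interferon motifs were in none of the 7 regions searched. Tlr8 and Tlr13 held a PU.1 core and Tlr8 also the TATA box motif, and Cd180 and Ly86 held none of the 5.

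Tlr1 and Tlr2 were at lower levels in every anti-LILRB4 library than in any control library, while their relative Tlr6 lay at like levels in both groups. Ly96 averaged lower and Cd180 and Ly86 higher with the antibody, with groups that overlapped. None of the 10 genes passed the threshold of the edgeR quasi-likelihood test, a Benjamini-Hochberg adjusted p of 0.05 over all 18210 genes tested. All 10 passed the filter on low counts. The test called 0 genes (0% of those tested), with 1463 at an unadjusted p under 0.05, against 169 called by DESeq2 and 0 by limma-voom. Adjusted p-values of the 10 genes were between 0.506 and 0.978. At an unadjusted p under 0.05 there were 3 of the 10 (Tlr1, Tlr2 and Ly96), all lower, against 3.91% of all genes lower at that level, 4.12% higher and 8.03% in either direction. DESeq2 and limma-voom gave the same count of 3 at that level, where DESeq2 had 9.71% of all genes. The count depended on single libraries. The edgeR unadjusted p of Ly96 was up to 0.163, without control library 1. That of Tlr1 was 0.0567 without anti-LILRB4 library 2 and 0.0640 without control library 2. That of Tlr2 was at most 0.0456, without control library 1. The groups did not overlap in 2 of the 10, both lower, against 7.79% of all genes with all anti-LILRB4 libraries below all controls and 14.7% in either direction. The log2 fold change was negative for 7 of the 10, against 50.9% of all genes. Its median over the 10 was -0.05 and that over all genes tested -0.0068. In bulk RNA a lower share of expressing cells and less RNA per cell cannot be told apart.

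**Figure D1:**
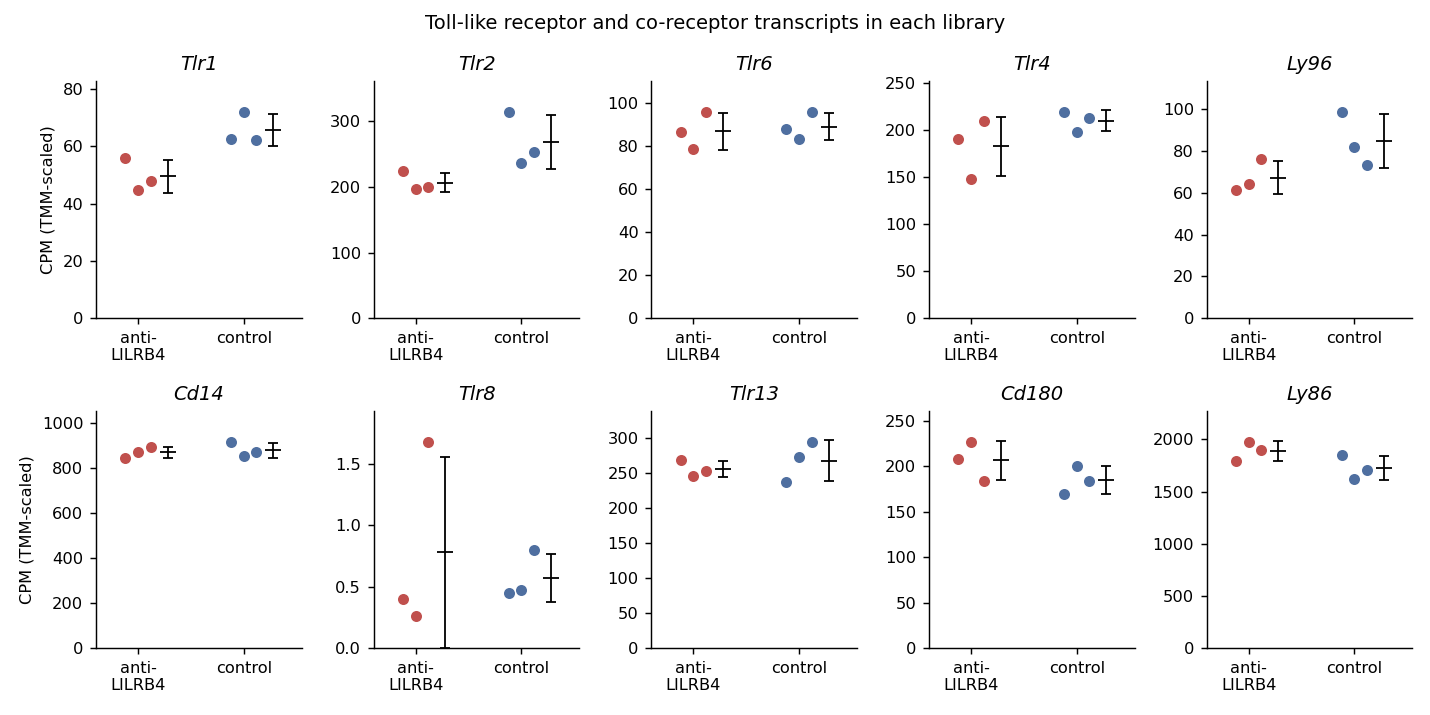
Level of each gene in CPM (TMM-scaled, linear axis from 0) in the 3 anti-LILRB4 and 3 control libraries. Points are libraries 1, 2 and 3 from left to right, and bars are the mean and SD. The groups are separate for Tlr1 and Tlr2 and overlap for the other 8 genes.

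Among the receptors of the TLR2 pairs, Tlr2 (ENSMUSG00000027995, GRCm38 chromosome 3, 83836272 to 83841767, minus strand), the shared subunit, was at 224, 197 and 199 CPM in anti-LILRB4 libraries 1, 2 and 3. In control libraries 1, 2 and 3 it was at 314, 237 and 253 CPM. Control library 1 was the highest of the 6, and the lowest control still lay above the highest anti-LILRB4 library. The means were 207 ± 15.0 CPM with anti-LILRB4 and 268 ± 40.8 CPM in controls (SD, n = 3 each). This gave a log2 fold change of -0.37 (standard error 0.13, edgeR unadjusted p = 0.0139, adjusted p = 0.506). Without control library 1 it was -0.24, and the groups still did not overlap.

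Tlr1 (ENSMUSG00000044827, chromosome 5, 64924679 to 64933563, minus strand), the partner for lipoproteins with a triacyl anchor, was at 55.9, 44.7 and 48.0 CPM in anti-LILRB4 libraries 1, 2 and 3, against 62.5, 71.9 and 62.1 CPM in control libraries 1, 2 and 3. Every treated library was below every control, and the highest control was library 2, not library 1 as for Tlr2. On the log2 scale the difference was -0.40 (standard error 0.13, edgeR unadjusted p = 0.0134, adjusted p = 0.506). Its unadjusted p was the smallest of the 10 genes and ranked 474 among all genes tested. In the authors' deposited table Tlr1 had a log2 fold change of -0.40 and Tlr2 one of -0.37, with adjusted p-values of 0.162 and 0.206.

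Tlr6 (ENSMUSG00000051498, chromosome 5, 64952031 to 64960097, minus strand), the partner for lipoproteins with a diacyl anchor, was at 86.3, 78.6 and 95.7 CPM in anti-LILRB4 libraries 1, 2 and 3. The control libraries had 88.0, 83.4 and 95.5 CPM. Both the lowest and the highest library were treated ones. Its log2 fold change was -0.03 (95% interval -0.30 to 0.24), and its sign turned when anti-LILRB4 library 2 (0.04) or control library 3 (0.02) was left out. The log2 ratio of Tlr6 to Tlr2 was -1.38, -1.32 and -1.06 in anti-LILRB4 libraries 1, 2 and 3, against -1.84, -1.51 and -1.41 in the controls. This difference of 0.33 (exact permutation test over the 6 libraries, two-sided p = 0.1, adjusted p = 0.4 over 6 partner pairs) had the smallest p that 3 against 3 libraries can give. It was 0.20 without control library 1. The log2 ratio of Tlr1 to Tlr2 averaged -2.07 ± 0.0681 with anti-LILRB4 and -2.02 ± 0.306 in controls (SD, n = 3 each), with overlapping groups (exact permutation p = 0.8).

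**Figure D2:**
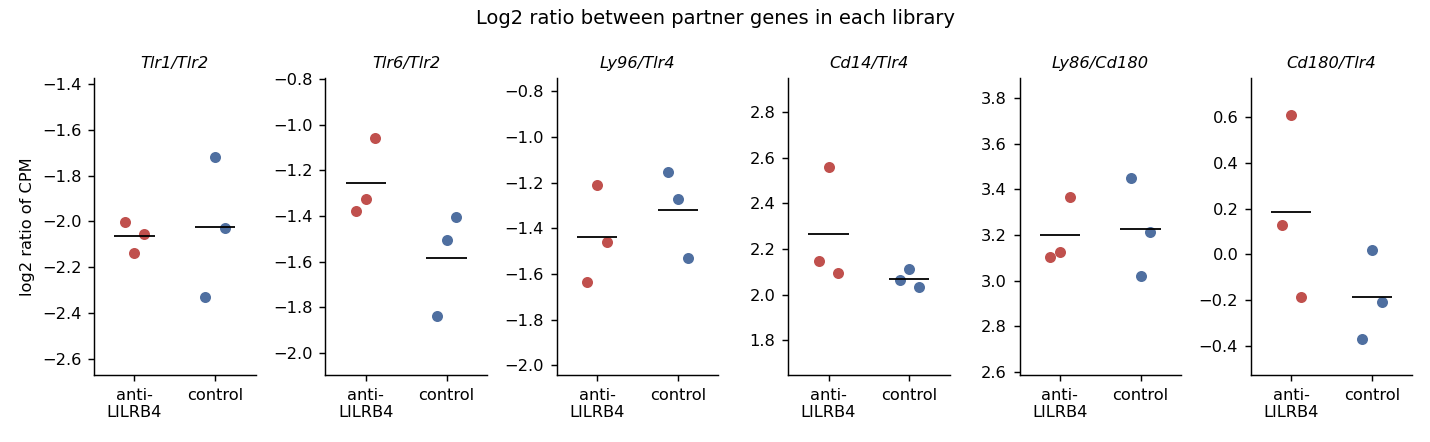
Log2 ratio of CPM between partner genes in each library (points, libraries 1, 2 and 3 from left to right; lines, group means), anti-LILRB4 beside control. All panels span the same range of 1.3 log2 units. Only for Tlr6 over Tlr2 do the groups stay apart, with all anti-LILRB4 libraries above all controls.

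In the TLR4 complex the groups overlapped for the receptor and for both co-receptors. Ly96 (ENSMUSG00000025779, chromosome 1, 16688051 to 16709611, plus strand), which encodes MD-2, was at 61.3, 64.1 and 76.1 CPM in anti-LILRB4 libraries 1, 2 and 3, against 98.7, 81.9 and 73.5 CPM in controls. The groups overlapped through anti-LILRB4 library 3, which lay above control library 3. Its log2 fold change of -0.33 (standard error 0.15, edgeR unadjusted p = 0.0447, adjusted p = 0.614) was -0.21 without control library 1. Tlr4 (ENSMUSG00000039005, chromosome 4, 66827584 to 66930284, plus strand) was at 191, 148 and 209.6 CPM in anti-LILRB4 libraries 1, 2 and 3, against 219, 197 and 213 CPM in controls. Its lower treated mean, 183 ± 31.4 CPM against 209.7 ± 11.2 CPM in controls (SD, n = 3 each), included the lowest library, anti-LILRB4 library 2. Without that library the log2 fold change was -0.06, and with all libraries -0.20 (95% interval -0.50 to 0.10). It was -0.31 without anti-LILRB4 library 3.

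Cd14 (ENSMUSG00000051439, chromosome 18, 36725067 to 36726798, minus strand), the ligand-delivering co-receptor, had the smallest log2 fold change of the 10 genes. It was at 844, 873 and 896 CPM in anti-LILRB4 libraries 1, 2 and 3 and at 917, 853 and 872 CPM in control libraries 1, 2 and 3. The groups overlapped, with a log2 fold change of -0.02 (95% interval -0.20 to 0.16). Its sign turned when anti-LILRB4 library 1 (0.0084) or control library 1 (0.01) was left out. The log2 ratio of Cd14 to Tlr4 differed by 0.20 and that of Ly96 to Tlr4 by -0.12, anti-LILRB4 minus control (exact permutation p = 0.2 and 0.6). Without anti-LILRB4 library 2 these differences were 0.05 and -0.23, and without anti-LILRB4 library 1 that of Ly96 to Tlr4 was -0.02.

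Both genes of the RP105 complex averaged higher with anti-LILRB4. Cd180 (ENSMUSG00000021624, chromosome 13, 102693558 to 102739629, plus strand) was at 208, 226 and 184 CPM in anti-LILRB4 libraries 1, 2 and 3, against 169, 200 and 184 CPM in controls. Ly86 (ENSMUSG00000021423, chromosome 13, 37345208 to 37419036, plus strand), which encodes its partner MD-1, was at 1791, 1974 and 1901 CPM in anti-LILRB4 libraries 1, 2 and 3, against 1852, 1621 and 1703 CPM in controls. The groups of both genes overlapped. The log2 fold changes were 0.16 (95% interval -0.10 to 0.42) for Cd180 and 0.13 (95% interval -0.05 to 0.31) for Ly86, with edgeR adjusted p-values of 0.769 and 0.737. That of Cd180 was 0.10 without anti-LILRB4 library 2 and likewise 0.10 without control library 1. The ratio of Ly86 to Cd180 was nearly equal in the groups, at a log2 of 3.20 ± 0.147 with anti-LILRB4 and 3.23 ± 0.216 in controls (SD, n = 3 each; exact permutation p = 0.9). The log2 ratio of Cd180 to Tlr4 averaged 0.18 ± 0.40 with anti-LILRB4 and -0.19 ± 0.20 in controls, with overlapping groups (exact permutation p = 0.2, adjusted p = 0.4). Their difference of 0.37 was 0.16 without anti-LILRB4 library 2.

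The RNA-sensing receptors Tlr13 and Tlr8 were far apart in level. Tlr13 (ENSMUSG00000033777, chromosome X, 106143204 to 106160493, plus strand) was at 268, 246 and 254 CPM in anti-LILRB4 libraries 1, 2 and 3, against 237, 272 and 294 CPM in controls. Its treated libraries lay inside the range of the controls, with a log2 fold change of -0.07 (95% interval -0.31 to 0.17) that turned to 0.0058 without control library 3. Tlr8 (ENSMUSG00000040522, chromosome X, 167242696 to 167264329, minus strand) had 18, 15 and 69 reads in anti-LILRB4 libraries 1, 2 and 3, against 20, 19 and 35 reads in controls. Library 3 was the highest of each group. Its log2 fold change of 0.43 rested on anti-LILRB4 library 3, was -0.79 without it, and had a 95% interval of -1.29 to 2.16.

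**Figure D3:**
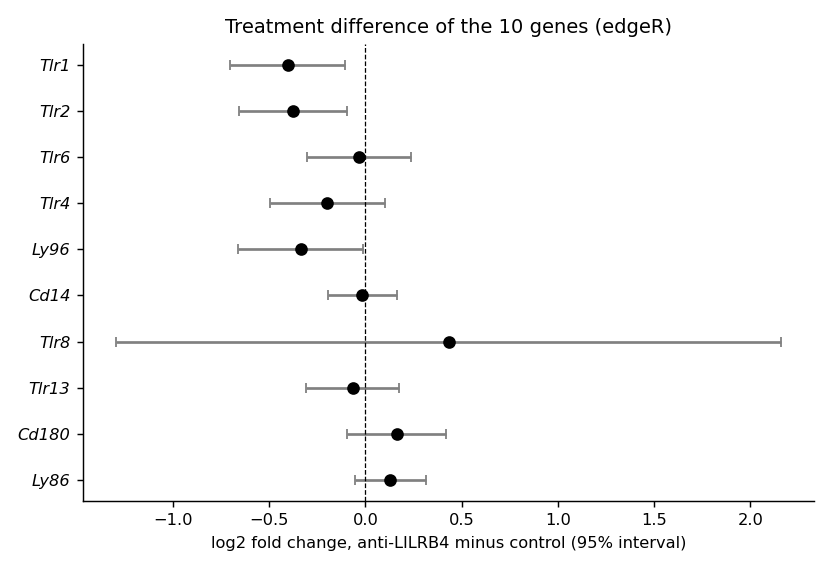
Log2 fold change of each of the 10 genes, anti-LILRB4 minus control (points), with its 95% interval from the edgeR fit (bars). The intervals of Tlr1, Tlr2 and Ly96 lie below 0 before adjustment for the 18210 genes tested, and that of Tlr8 is the widest.

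The genes also differed in level, given here as CPM per kilobase of exon in GENCODE M21. Cd14, at 505.6 ± 15.4 CPM per kilobase, and Ly86, at 498 ± 35.8 (SD over 6 libraries each), were the most abundant and stood above 99.5% of the genes tested. Each of them was the higher one in 3 of 6 libraries, so their order is not fixed. They were followed by Tlr2 at 78.8 ± 14.4, Ly96 at 74.4 ± 13.2 and Tlr13 at 60.9 ± 4.79 CPM per kilobase, whose neighbouring ranges overlapped. Next came Cd180 at 43.3 ± 4.53 and Tlr4 at 35.3 ± 4.63 CPM per kilobase, also with overlapping ranges, although Cd180 was higher in 5 of 6 libraries. Tlr6 at 23.6 ± 1.81 was above Tlr1 at 17.2 ± 3.02 CPM per kilobase in 6 of 6 libraries, with ranges that overlapped between libraries. Tlr8, at 0.189 ± 0.145 CPM per kilobase, was far below the rest and above 8.28% of the genes tested. The ranges over 6 libraries did not overlap between Ly86 and Tlr2, Tlr13 and Cd180, Tlr4 and Tlr6, or Tlr1 and Tlr8.

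**Figure D4:**
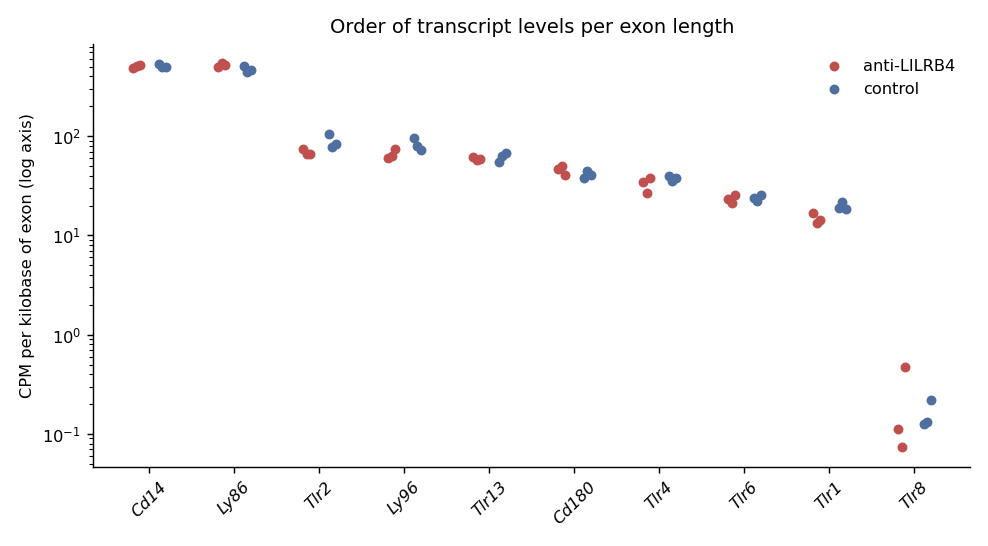
Level per kilobase of exon (log axis) in each anti-LILRB4 (left) and control (right) library, with genes ordered by their mean. Cd14 and Ly86 stand near 500 and Tlr8 below 1 CPM per kilobase.

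Across the 6 libraries the log2 CPM of Tlr2 had a Pearson correlation of 0.691 with Tlr1, 0.762 with Ly96 and 0.19 with Tlr6. Tlr4 and Cd180 ran opposite to each other (-0.914), as did Tlr1 and Ly86 (-0.899). The correlation of Cd180 with its partner Ly86 was 0.183. The libraries share treatment groups and scaling, and these values over 6 points are a description. The genes most like Tlr1 in pattern, among 9094 named genes with a mean log2 CPM of at least 2, were Ccdc174 (0.998), Dnaaf3 (0.995) and Zfp59 (0.994). Those most like Ly86 were Fam192a (0.994), Glrx5 (0.993) and Gnb1l (0.990).

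Other genes of the pathway, in 9 lists of 101 genes, gave 91 genes tested. None was called by edgeR (smallest adjusted p 0.426), and DESeq2 called 2 of them, against 0.928% of all genes. With unadjusted p-values under 0.05, 4 of the 91 lay higher, against 4.12% of all genes, and 7 lay lower, against 3.91%. In 6 of the 91 all anti-LILRB4 libraries lay above all controls, against 6.94% of all genes, and in 7 all lay below, against 7.79%. The median log2 fold change over the 91 was 0.00079.

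The chaperones held the pathway gene with the smallest p-value. Cnpy3, which folds surface and endosomal Toll-like receptors in the endoplasmic reticulum, was at 98.5, 121 and 118 CPM in anti-LILRB4 libraries 1, 2 and 3, against 70.1, 76.7 and 82.2 CPM in controls. Every treated library lay above every control. The log2 fold change of 0.56 (standard error 0.13) was called by DESeq2 (adjusted p = 0.00839) and not by edgeR (adjusted p = 0.426). Of the 10 genes of the chaperone and trafficking list, Cnpy3 alone had an unadjusted p under 0.05, against 8.03% of all genes. Unc93b1, which carries endosomal receptors out of the endoplasmic reticulum, and Hsp90b1, the chaperone that works with Cnpy3, had log2 fold changes of 0.10 and 0.24 with overlapping groups, and the exons of Hsp90b1 overlap other genes.

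Adaptors and kinases next to the receptors showed no separation of the groups, with 0 of 6 adaptors and 0 of 15 kinases and ubiquitin ligases at an unadjusted p under 0.05. Pik3ap1, an adaptor to PI3-kinase, had a log2 fold change of 0.38 and Ticam1, the adaptor TRIF, one of -0.26. They were 0.18 without control library 1 for Pik3ap1 and -0.14 without anti-LILRB4 library 3 for Ticam1. Irak2, Irak4 and Peli2, kinases and a ubiquitin ligase of the MyD88 branch, had log2 fold changes of 0.17, 0.32 and 0.32. The exons of each of these 3 overlap another gene. In the list of IKK-related kinases and IRF factors 1 of 10 genes tested was lower at that level, against 3.91% of all genes. This was Chuk, the kinase IKK-alpha, at 14.4, 12.1 and 15.4 CPM in anti-LILRB4 libraries and 20.3, 16.5 and 18.7 CPM in controls. Irf8 and Irf7, transcription factors of myeloid cells and of the interferon response, had log2 fold changes of -0.09 and -0.75 with overlapping groups, and the exons of Irf7 overlap Phrf1.

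Among 14 negative regulators 1 was higher at an unadjusted p under 0.05, against 4.12% of all genes. Inpp5d, the phosphatase SHIP1, was at 352, 491 and 357 CPM in anti-LILRB4 libraries 1, 2 and 3, against 220.5, 312 and 296 CPM in controls (log2 fold change 0.53, edgeR adjusted p = 0.506). All its treated libraries were above all controls. Nlrc3 was below 2 CPM in all libraries, with a log2 fold change of 0.90 and a standard error of 0.58. Of the ligand delivery and accessory receptors, 2 of 8 genes tested were lower at that level, against 3.91% of all genes. Cd44, a hyaluronan receptor, was at 4.28, 4.82 and 2.62 CPM in anti-LILRB4 libraries and 11.5, 6.92 and 7.44 CPM in controls, and its groups did not overlap. Clec7a, the beta-glucan receptor Dectin-1, had a log2 fold change of -0.75, with groups that overlapped. Hmgb1, a nuclear protein that acts as a Toll-like receptor ligand when released, had one of 0.13 and lay above all controls, but its exons overlap other genes.

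Of 9 nucleases and endosomal proteases, 2 lay higher and 1 lower with unadjusted p-values under 0.05, against 4.12% and 3.91% of all genes. Ctsl, cathepsin L, was at 918.5, 884 and 764 CPM in anti-LILRB4 libraries 1, 2 and 3, against 1331, 1030.0 and 1158 CPM in controls. Its groups did not overlap, and DESeq2 called it (log2 fold change -0.46, adjusted p = 0.0468, against 0.426 in edgeR). Ctss, cathepsin S, lay on the other side, at 3252, 4894 and 4271 CPM with anti-LILRB4 and 3244, 3074 and 3011 CPM in controls. Its groups did not overlap either, but only narrowly, at 3252 against 3244 CPM. Its log2 fold change was 0.41 (edgeR unadjusted p = 0.00895, adjusted p = 0.503). Lgmn, a protease that cleaves endosomal Toll-like receptors, was the most abundant of the list, with a log2 fold change of 0.08 and all treated libraries above all controls. The exons of Ctsl overlap those of predicted genes.

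Genes that Toll-like receptors induce had 13 of 20 members tested, 3 of them lower and 0 higher with unadjusted p-values under 0.05, against 3.91% and 4.12% of all genes. Their median log2 fold change was -0.22, against -0.0068 over all genes. The 20 genes summed to 932.4, 916.8 and 856.4 CPM in anti-LILRB4 libraries 1, 2 and 3. In control libraries 1, 2 and 3 the sum was 1417.3, 898.5 and 1060.9 CPM. The groups overlapped in this sum, and control library 1 was the highest. Ccl3, a chemokine, was at 90.9, 97.5 and 69.6 CPM in anti-LILRB4 libraries 1, 2 and 3, against 163, 105 and 108 CPM in controls. Cxcl10, a chemokine of the interferon response whose exons overlap Art3, was at 2.42, 3.38 and 1.89 CPM in anti-LILRB4 libraries, against 7.51, 5.60 and 3.62 CPM in controls. The groups of both genes did not overlap, and neither passed the test (edgeR adjusted p = 0.525 for Ccl3 and 0.506 for Cxcl10). Nfkbia, the inhibitor of NF-kB and most abundant of these genes, differed by -0.22 on the log2 scale, and its groups overlapped. Of the 6 remaining receptors, Tlr7, Tlr9 and Tlr12 had log2 fold changes of -0.05, 0.27 and -0.25, with groups that overlapped. Of these 6 receptors, 0 had an unadjusted p under 0.05.

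**Figure D5:**
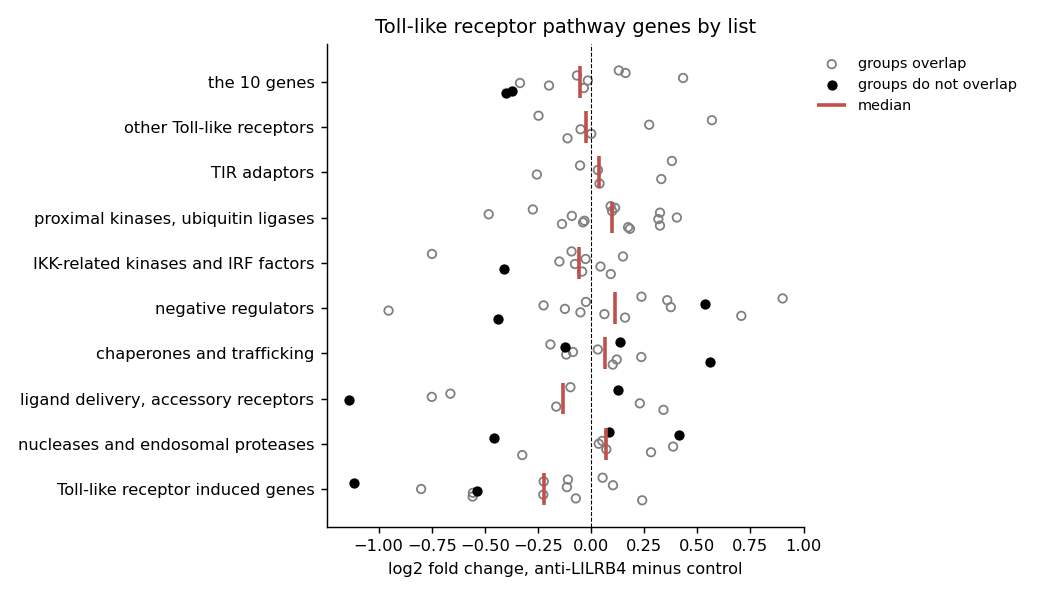
Log2 fold change, anti-LILRB4 minus control, of each tested gene (points) in the set of 10 and in 9 pathway lists. Filled points are genes whose groups do not overlap, and vertical bars are list medians, the lowest of which is -0.22 for genes that Toll-like receptors induce.

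Levels of other transcripts are set beside those of Tlr1, Tlr2 and Ly96 here, and edgeR called none of these genes. Immediate early and dissociation genes, which respond to stimulation and to handling of cells, summed to 1419, 1303 and 1298 CPM in anti-LILRB4 libraries 1, 2 and 3, against 1674, 1489 and 1538 CPM in controls. No treated library reached the lowest control in this sum. Of the 16 tested, 10 lay below all controls, against 7.79% of all genes, and 1 above, against 6.94%. An unadjusted p under 0.05 was found for 5 on the lower side, against 3.91% of all genes, and for 1 on the higher, against 4.12%. DESeq2 called 3, all lower, against 0.928% of all genes in either direction. Their 2 most abundant genes, Btg2 and Klf6, had log2 fold changes of -0.18 and -0.17, with groups that overlapped for Btg2 and not for Klf6. The part of these genes in the levels of Tlr1 and Tlr2 was not tested. Among neutrophil markers Retnlg was at 0.0443, 0.473 and 1.77 CPM in anti-LILRB4 libraries 1, 2 and 3, against 25.7, 5.58 and 7.83 CPM in controls. Mmp8 was at 1.97, 1.03 and 0 CPM in anti-LILRB4 libraries, against 10.1, 3.42 and 5.42 CPM in controls. Ly6g was at 0, 0.596 and 0.0486 CPM in anti-LILRB4 libraries, against 1.38, 1.59 and 1.37 CPM in controls. These 3, picked by their values from the 12 markers, lay below all controls as Tlr1 and Tlr2 did, against 7.79% of all genes. Each was below 2 CPM in every anti-LILRB4 library. Csf3r of the same list lay above all controls, against 6.94% of all genes, and the groups of the other markers overlapped. The sum of the list was high in anti-LILRB4 library 2. Of the microglia markers, 3 of 9 were higher with an unadjusted p under 0.05, against 4.12% of all genes, and 0 were lower. They were Csf1r, Sall1 and Fcrls, with log2 fold changes of 0.67, 0.49 and 0.46. The groups of Sall1 overlapped, and the exons of Csf1r overlap Hmgxb3. The part of neutrophil or microglia RNA in the levels of Tlr1, Tlr2 and Ly96 was not tested. Without anti-LILRB4 library 2, in which Tlr2 and Tlr1 were lowest, their log2 fold changes were -0.33 and -0.33, with edgeR adjusted p-values of 0.756 and 0.773, and the groups of both still did not overlap, as in 23.1% of all genes in that comparison.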

How the data were processed

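RNA was sequenced from sorted microglia in 6 libraries, 3 per group, whose titles give group and replicate. The cDNA kit, a low-input one per the labels' protocols, keeps no strand. The deposited counts are whole reads per Ensembl gene, and the submitters' processing notes name STAR, featureCounts, Salmon and DESeq2 1.38.3 without roles. Neither build nor annotation of the counts is given in the sources used here. A second table from the authors holds, per the file headers, a log2 fold change with its error, a score (the fold change over its error), p-values and a mean normalized signal per gene, in the form of DESeq2 output. Its fold change had the sign of anti-LILRB4 over control for 99.9% of genes shared with an own fit.

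After 287 repeated rows were dropped, 55493 genes remained. Differences were tested in edgeR 4.0.16 under R 4.3.3, after filterByExpr (minimum count 10), by a quasi-likelihood F test with TMM and no covariate. Levels in CPM use the TMM-scaled sizes, and 2 was the prior count on the log2 scale. Standard errors are the fold change over the square root of F. Partner ratios, for pairs whose proteins bind each other or resemble each other, used exact permutation. DESeq2 1.42.0 and limma-voom 3.58.1 were alternatives, with other scalings, filters, a robust fit, a replicate block, a threshold of 0.1, only protein-coding genes and each library left out. The tests were checked on simulated counts. Coordinates and exon lengths are from GENCODE M21 (GRCm38), joined by Ensembl identifier.

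All 10 genes are named. Of each pathway list the most abundant gene and the 2 with the smallest p were named, and of marker lists the 2 most abundant. From the marker lists Csf1r, Fcrls, Siglech, Sall1, Retnlg, Mmp8 and Ly6g were also named, after their values were seen. The 3 genes most like Tlr1 (smallest p) and those most like Ly86 (most abundant) were named too. The genes and lists were chosen with earlier results of these data known. Figures used matplotlib 3.10.9 in Python 3.11.15. A further microglia marker is not reported here.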

Additional observations from a re-analysis of the deposited data

How the results depend on the processing

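Over all genes, DESeq2 called 169 genes and edgeR with no filter on low counts 300, against 0 in edgeR. The other alternatives called 0, and none called any of the 10 genes. Tlr1, Tlr2, Ly96, Tlr4, Cd180 and Ly86 kept their direction in all 16 alternatives. Cd14, between -0.0362 and 0.0141 with 1 library left out, turned to 0.00836 and 0.0141 without anti-LILRB4 replicate 1 and without control replicate 1, Tlr6 to 0.0413 and 0.0193 without anti-LILRB4 replicate 2 and without control replicate 3, and Tlr13, between -0.147 and 0.00576, turned without control replicate 3. Tlr8 turned to -0.11 in limma-voom and lay between -0.792 without anti-LILRB4 replicate 3 and 0.857 without anti-LILRB4 replicate 2. Genes of the 10 whose groups did not overlap numbered between 2 and 6 with 1 library left out (6 without anti-LILRB4 replicate 3, 4 without control replicate 1 or 2), where between 23.1 and 26.8% of all genes did not overlap. The difference in log2 ratio of Ly86 to Cd180 lay between -0.132 and 0.0835 and that of Tlr1 to Tlr2 between -0.192 and 0.114. That of Tlr6 to Tlr2 lay between 0.203 and 0.418, of Cd180 to Tlr4 between 0.158 and 0.557, of Cd14 to Tlr4 between 0.0509 and 0.282 and of Ly96 to Tlr4 between -0.231 and -0.0182. Of the pathway genes named, log2 fold changes moved by over 1.5 times without control replicate 1 for Pik3ap1 (0.18), Tlr9 (0.15), Tlr12 (-0.44), Irf7 (-0.46), Unc93b1 (0.06), Nfkbia (-0.10) and Ccl3 (-0.30). Without anti-LILRB4 replicate 2 they did for Irak4 (0.20), Peli2 (0.16) and Hsp90b1 (0.12), and without anti-LILRB4 replicate 3 for Ticam1 (-0.14), Tlr9 (0.18) and Nlrc3 (0.58). Tlr12 was at -0.15 and Irf7 at -1.13 without control replicate 2, and Tlr12 at -0.13 without control replicate 3. With no filter on low counts Inpp5d, Cnpy3, Clec7a, Ctsl, Ctss and Ccl3 were called. The cause of these changes was not tested.

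Over all genes, deviations from group means in same-numbered libraries correlated at 0.0136, 0.029 and -0.0138. Libraries of unlike number lay between -0.057 (anti-LILRB4 library 2 with control library 1) and 0.0388 (anti-LILRB4 library 3 with control library 1). Such values near 0 gave no sign of pairing by replicate number, but cannot exclude a pairing that touches few genes. With the replicate block 0 genes were called, the log2 fold changes of Tlr1 and Tlr2 were -0.41 and -0.37 (edgeR adjusted p 0.465 and 0.361), and permutation of Tlr6 over Tlr2 within blocks gave 0.25, the smallest p possible there. Among the 10 genes, reads were few for Tlr8.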
